A study of Mus musculus with 6 samples.

Results

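The 10 genes described here encode enzymes and 1 transporter of the NRF2 programme of redox defence, measured in MCEC cells with and without a short hairpin RNA against Fat4. They were taken by name (Slc7a11, Gclc, Gclm, Gsr, Txnrd1, Prdx1, Srxn1, Me1, Nqo1 and Hmox1), each has 1 row, and they are 10 of 78317 gene rows in the deposited table. All 10 were among the 13372 genes left after a filter on low counts. MCEC is a mouse cell line of cardiac endothelial origin. Messenger RNA was sequenced as tagmented cDNA from 3 ShFat4 libraries, called knockdown, and from 3 Wildtype libraries of the same line, called control. Whether the control cells carried a hairpin, whether the knockdown cells were a clone or a pool, and whether replicates were grown separately are not stated in the labels. The p-values therefore cover the variation among these 6 libraries alone, part of which may be technical.

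NRF2, encoded by Nfe2l2, is a transcription factor that KEAP1 holds in the cytoplasm and passes to a CUL3 ubiquitin ligase for destruction. Oxidants and electrophiles modify KEAP1, and NRF2 then accumulates, pairs with small MAF proteins and binds antioxidant response elements in its target genes. The targets supply glutathione, recycle thioredoxin and peroxiredoxins, make NADPH, and detoxify quinones and haem. In vessel walls the programme is known for protecting endothelial cells from oxidative stress, and Hmox1 is its best known vascular target.

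Levels below are in CPM, counts scaled to a common library size by TMM (the trimmed mean of M values). Total counts ran from 10509069 to 11538010 in the knockdown libraries and from 10305810 to 11870091 in the control libraries. Fat4, an atypical cadherin, was scarce and fell, with 8.5, 10 and 9 counts in the knockdown libraries against 10, 22 and 31.5 in control replicates 1, 2 and 3 (log2 fold change -1.17 with an SE of 0.35 and an adjusted p of 0.033 by edgeR's quasi-likelihood test). Control replicate 1 lay inside the knockdown range on the normalised scale (0.97 CPM, against 0.76 to 0.98 CPM in the knockdown), and the call held in 1 of the 6 fits that left out a library. With all 6 libraries the Fat4 call was lost under limma-voom (adjusted p = 0.067) and under correction for GC content and length (edgeR adjusted p = 0.059, with a replicate block 0.078). DESeq2 gave Fat4 a log2 fold change of -1.15 but no adjusted p, and a floor of 10 CPM in 3 libraries left it untested. Over all genes, 2324 were called changed, and fits without 1 library called between 1029, without control replicate 2, and 3077, without control replicate 1. Of 12 endothelial markers, 9 lay under 1 CPM in both groups, and Vwf, Erg, Cldn5, Tie1 and Emcn had no count in any library, where 0 counts allow up to 0.25 to 0.29 CPM (3 counts, counting error only).

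Summed levels of the endothelial, mesothelial and fibroblast markers differed between the groups as well. As background to the marker calls below, 17.4% of all genes tested were called by the edgeR test, 8.94% higher and 8.44% lower. The endothelial markers summed to 24.0 to 30.0 CPM in knockdown and 35.9 to 38.7 CPM in control libraries, with Flt1 (log2 fold change -0.59) and Eng (-0.42) lower among 3 tested, Eng being called in 2 of the 6 fits without 1 library. Eng alone made up most of that sum, at 15.3 to 22.9 CPM in knockdown and 25.3 to 27.3 CPM in control libraries. The 10 mesothelial markers summed to 1589 to 1648 CPM in knockdown and 1815 to 1916 CPM in control libraries. Of these, Upk3b (-0.42), Lrrn4 (-0.57), Gpm6a (-0.39) and Wt1 (-0.19) fell, Wt1 with no call in any fit without 1 library, and the most abundant, Upk1b, was at 667 ± 16.6 CPM in knockdown and 667 ± 5.12 CPM in control (SD, n = 3 each). The 8 fibroblast markers summed to 1792 to 1956 CPM in knockdown and 2393 to 2477 CPM in control, with Col1a1 (-0.38) and Col3a1 (-0.64) lower and Thy1 (0.31) higher among 6 tested. Col1a1 made up most of that sum, at 1466 to 1604 CPM in knockdown and 1923 to 2016 CPM in control. By direction alone, 3 of the 6 tested fibroblast markers were higher and 3 lower, so the sum does not stand for the whole list. The 8 cardiomyocyte markers summed to 0.89 to 1.81 CPM in knockdown and 0.49 to 1.41 CPM in control, with Myh6, Myh7, Myl2, Ryr2 and Nppa at 0 counts and Tnnt2 the highest. Leukocyte markers summed to 6.86 to 9.07 CPM in knockdown and 6.98 to 8.25 CPM in control, with Adgre1 and Itgam at 0 counts and Cd14 and Cd68 the highest. Of these last 2 lists, 1 cardiomyocyte and 2 leukocyte markers passed the filter, and these 3 were not called. The part of these differences in the results below was not tested, and in bulk RNA fewer cells of a type and less RNA per cell cannot be told apart.

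Promoter sequence is shown first, since NRF2 acts through antioxidant response elements. Its core, TGACNNNGC, was searched on both strands of RefSeq promoter windows of GRCm38.p6 reaching from 250 bases before to 50 bases after an annotated start. Of the 10 genes, 7 had a window, and Hmox1, Gclc and Gsr had no entry. The core was present in 5 of the 7 genes and in 5 of their 10 windows, against 12.4% of all 32851 windows and 14.0% of all 27025 genes. Because the genes were taken by name as part of the NRF2 programme, a high share may come from that choice. Txnrd1 has 3 windows and Me1 has 2, which gives them more room for a match, and the share was not tested. The 5 matches are given with 10 bases on either side, 5′ to 3′ on the gene's strand, the core in capitals.
Gclm: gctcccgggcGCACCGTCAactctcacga
Prdx1: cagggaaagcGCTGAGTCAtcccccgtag
Txnrd1: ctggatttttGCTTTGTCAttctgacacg
Srxn1: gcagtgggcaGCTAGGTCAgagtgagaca
Me1: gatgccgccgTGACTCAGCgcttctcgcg

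The matches lie on the reverse strand in Gclm, Prdx1, Txnrd1 and Srxn1 and on the forward strand in Me1. With the annotated start as position 0, they begin at position -134 in Gclm, -133 in Prdx1, -92 in the second of 3 Txnrd1 windows, 28 in Srxn1 and -6 in the first of 2 Me1 windows. Read in the same orientation, the Prdx1 and Me1 cores are the same TGACTCAGC, which contains the AP-1 site TGACTCA, and a core overlapping an AP-1 site (TGACTCA or TGAGTCA) was found in 0.454% of all windows. The other 3 cores hold no AP-1 site. The Srxn1 window does hold the AP-1 site TGAGTCA outside its core, within TGAGTCACC and again within TGAGTCAGC, stretches that the searched core does not match. The Prdx1 window also holds TGACTCA outside its core, within TGACTCAAA, which the searched core does not match either. Of all windows, 5.2% hold an AP-1 site. No core lay in the windows of Nqo1 and Slc7a11, which says only that these letters are absent there.

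The 250 bases before the start are printed for Gclm and Prdx1, which were called changed and have a window, with the core in capitals. The Gclm stretch is chr3:122245307-122245556 and the Prdx1 stretch chr4:116685349-116685598, both on the forward strand of GRCm38.p6.
Gclm: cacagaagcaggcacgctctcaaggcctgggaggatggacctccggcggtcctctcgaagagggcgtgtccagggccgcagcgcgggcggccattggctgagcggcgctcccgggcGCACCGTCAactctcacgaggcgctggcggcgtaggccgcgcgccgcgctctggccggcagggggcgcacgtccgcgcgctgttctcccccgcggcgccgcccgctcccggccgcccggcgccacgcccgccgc
Prdx1: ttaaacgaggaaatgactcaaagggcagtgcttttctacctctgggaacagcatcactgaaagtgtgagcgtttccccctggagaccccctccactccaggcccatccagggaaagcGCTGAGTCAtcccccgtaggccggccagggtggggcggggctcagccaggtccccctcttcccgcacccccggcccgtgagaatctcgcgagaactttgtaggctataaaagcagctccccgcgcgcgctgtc

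The question put to the data was whether lowering Fat4 altered the expression of this programme. Of the 10 genes, 2 fell, 1 rose and 7 did not pass the test, and the changes were small. Gclc and Gclm, the 2 subunits of the enzyme that starts glutathione synthesis, were lower in the knockdown, and Prdx1, the main cytosolic peroxiredoxin, was higher. The test was edgeR's quasi-likelihood test fitted across all 13372 genes, and a gene was called at a Benjamini-Hochberg adjusted p under 0.05. By the same rule 17.4% of all genes tested were called, 8.94% higher and 8.44% lower, so 3 calls among 10 genes stand against that background without a test of the list. Of the 2324 calls 51.4% were higher under TMM, and 32.9% of 2593 under library-size scaling, which moved the median of all genes to -0.069. Counting direction alone, 7 of the 10 were lower and 3 higher in the knockdown, beside 6986 lower and 6386 higher over all genes tested. Their median log2 fold change was -0.13 beside -0.012 over all genes tested. The knockdown and control libraries did not overlap for 7 of the 10, Gclc, Gclm, Prdx1, Srxn1, Gsr, Hmox1 and Me1, against 34.9% of all genes tested.

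**Figure D1:**
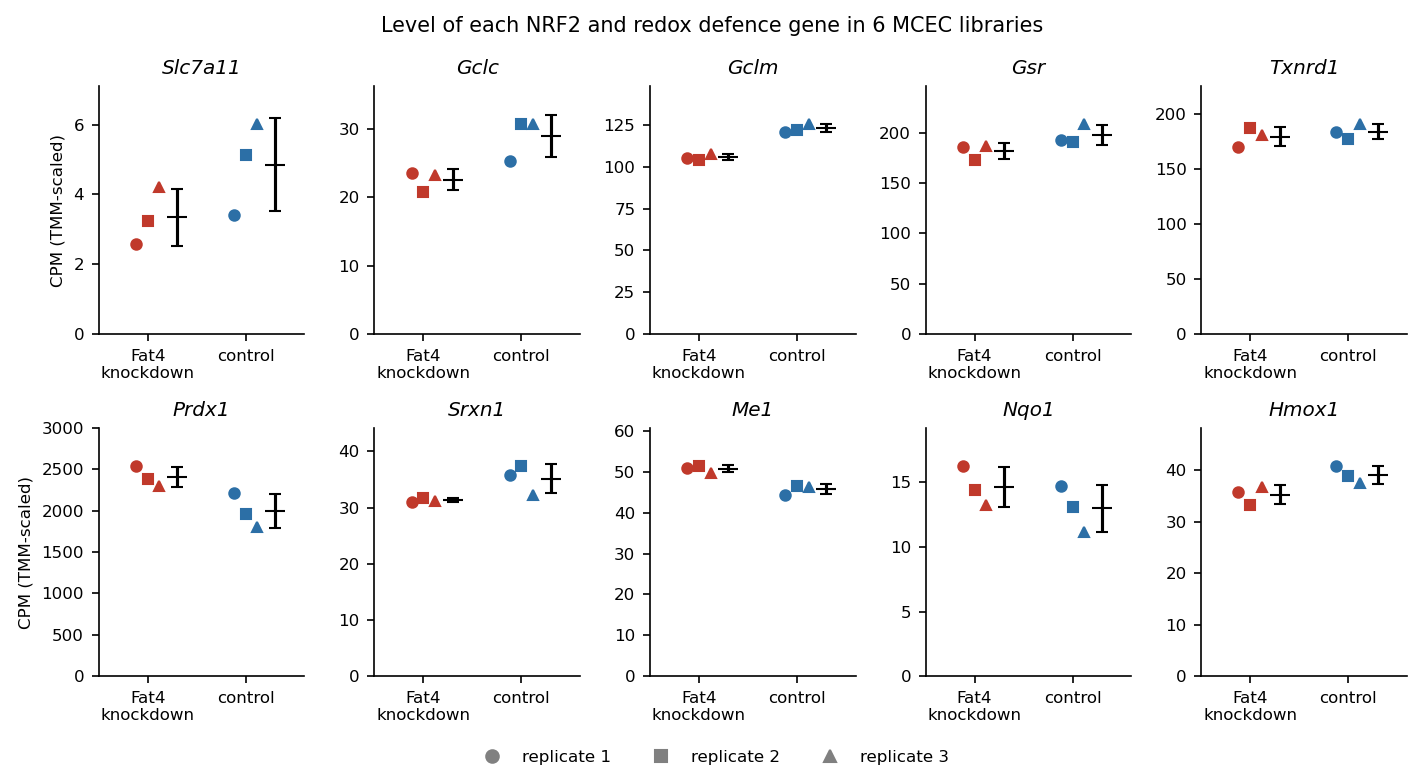
Level of each of the 10 genes in CPM (TMM-scaled, linear axes from 0), with the 3 knockdown libraries left of the 3 control libraries, a symbol for each replicate number, and the mean with SD in black. Gclc, Gclm, Srxn1, Gsr and Hmox1 are lower and Prdx1 and Me1 higher in every knockdown library than in any control library, and Slc7a11, Txnrd1 and Nqo1 overlap.

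To compare genes with one another, CPM was divided by the exon length in kilobases. On that scale Prdx1 led with 792 ± 40.8 CPM per kb in knockdown and 655 ± 67.7 in control libraries (SD, n = 3 each), and Gsr followed with 66.1 ± 2.88 in knockdown and 71.7 ± 3.58 in control. Txnrd1, Hmox1 and Gclm came next, with knockdown means of 25.3, 20.1 and 16.8 CPM per kb and control means of 25.9, 22.3 and 19.6. Slc7a11 was the lowest, at 0.24 ± 0.06 CPM per kb in knockdown and 0.35 ± 0.10 in control.

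In that order Me1 and Srxn1 changed places between the groups. Me1 stood above Srxn1 in knockdown (13.2 ± 0.22 against 11.1 ± 0.14 CPM per kb), and in control Srxn1, at 12.5 ± 0.93, and Me1, at 11.9 ± 0.32, lay within their spread (SD, n = 3). Nqo1 stood above Gclc in both groups, clear of it in knockdown (9.43 ± 0.99 against 5.99 ± 0.41 CPM per kb) and within the spread in control (8.37 ± 1.16 against 7.68 ± 0.82). The length used is that of all annotated exons of a gene, and whether reads cover whole transcripts is not stated.

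Slc7a11, Gclc and Gclm serve glutathione synthesis. Slc7a11 encodes the cystine importer that brings in the limiting amino acid for glutathione (ENSMUSG00000027737, GRCm39 chromosome 3, 49846975 to 50398063, minus strand). It had 2.59, 3.23 and 4.22 CPM in knockdown replicates 1, 2 and 3, against 3.40, 5.12 and 6.02 CPM in control replicates 1, 2 and 3. Control replicate 1 and knockdown replicate 3 made the groups overlap. The log2 fold change was -0.56, the largest in size of the 10, but with only 29 to 74 counts a library its SE was 0.22 and it did not pass (edgeR adjusted p = 0.091). Without control replicate 1 it was -0.74 with an edgeR adjusted p of 0.010, and without control replicate 3 it was -0.37 with 0.36.

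Gclc encodes the catalytic subunit of glutamate-cysteine ligase (ENSMUSG00000032350, chromosome 9, 77661817 to 77701767, plus strand). Its levels were 23.6, 20.8 and 23.3 CPM in knockdown replicates 1, 2 and 3 against 25.3, 30.7 and 30.7 CPM in control replicates 1, 2 and 3. All knockdown libraries were below all control libraries, with control replicate 1 the nearest. Gclc fell to 22.6 ± 1.55 CPM in knockdown, against 28.9 ± 3.10 CPM in control (SD, n = 3 each, log2 fold change -0.36, SE 0.09, edgeR adjusted p = 0.013). The call was lost without knockdown replicate 2 (edgeR adjusted p = 0.078), control replicate 2 (0.078) or control replicate 3 (0.058), with log2 fold changes of -0.31 to -0.32 there.

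Gclm encodes the modifier subunit of the same enzyme, which eases its feedback inhibition by glutathione (ENSMUSG00000028124, chromosome 3, 122039206 to 122064381, plus strand). Its levels were 105.6, 104.2 and 107.6 CPM in knockdown replicates 1, 2 and 3, against 121.2, 122.3 and 125.8 CPM in control replicates 1, 2 and 3. The groups were well apart, and relative to its mean the spread was the narrowest of the 3 called genes. Gclm fell to 105.8 ± 1.71 CPM in knockdown, against 123.1 ± 2.40 CPM in control (SD, n = 3 each, log2 fold change -0.22, SE 0.06, edgeR adjusted p = 0.017). The call was lost without knockdown replicate 1 (edgeR adjusted p = 0.052), knockdown replicate 2 (0.062), control replicate 2 (0.073) or control replicate 3 (0.062).

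The Gclm value is uncertain for another measured reason. Gm6061, a transcribed processed pseudogene on the same strand, shares 244 exon bases with Gclm and held more counts than Gclm in every library. Gm17494, a long noncoding RNA gene on the opposite strand, shares 296 exon bases with Gclm. It held only 30.25 to 91.08 counts a library (log2 fold change 0.70, edgeR adjusted p = 0.28). The strand setting is not stated, and the part of Gm17494 in the Gclm counts was not tested. None of the 6 Gclm counts was a whole number, as happens where a read is divided among features. Gm6061 had 295.8, 256.8 and 255.3 CPM in knockdown replicates 1, 2 and 3, against 247.6, 244.3 and 228.9 CPM in control replicates 1, 2 and 3 (log2 fold change 0.16, edgeR adjusted p = 0.095). With the 2 rows summed, a setting chosen after seeing the data, the log2 fold change was 0.046 (SE 0.059, edgeR adjusted p = 0.65). The fall of Gclm thus holds for the deposited Gclm row, and the sum showed no difference. Most counts of the sum are those of the Gm6061 row, so it does not measure Gclm alone.

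Gsr encodes glutathione reductase, which returns oxidised glutathione to its reduced form with NADPH (ENSMUSG00000031584, chromosome 8, 34142551 to 34188191, plus strand). It had 185.7, 172.8 and 187.3 CPM in knockdown replicates 1, 2 and 3, against 192.6, 191.1 and 208.9 CPM in control replicates 1, 2 and 3. The knockdown libraries were the lower 3, by a narrow gap. The difference did not pass the test (log2 fold change -0.12, SE 0.06, edgeR adjusted p = 0.19).

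In the thioredoxin limb, Prdx1 rose, and Txnrd1 and Srxn1 did not pass the test. Prdx1 encodes a peroxiredoxin that reduces hydrogen peroxide with electrons from thioredoxin (ENSMUSG00000028691, chromosome 4, 116542741 to 116558019, plus strand). Its levels were 2543, 2387 and 2298 CPM in knockdown replicates 1, 2 and 3 against 2215, 1956 and 1808 CPM in control replicates 1, 2 and 3. Every knockdown library exceeded every control library, and control replicate 1 lay closest to the knockdown. Prdx1 rose to 2409 ± 124 CPM in knockdown, against 1993 ± 206 CPM in control (SD, n = 3 each, log2 fold change 0.27, SE 0.07, edgeR adjusted p = 0.015). Without control replicate 1 the log2 fold change was 0.36 (edgeR adjusted p = 0.00047). Its count was whole in 1 of 6 libraries.

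The Prdx1 call was lost without knockdown replicate 1 (edgeR adjusted p = 0.081), knockdown replicate 2 (0.061), control replicate 2 (0.087) or control replicate 3 (0.078). It was also lost when trends with GC content and exon length were taken out, where the log2 fold change was 0.16 (edgeR adjusted p = 0.091), though the same correction with a replicate block gave 0.047. Ribosomal protein genes took 13.2%, 12.9% and 12.6% of counts in knockdown replicates 1, 2 and 3 and 11.8%, 11.1% and 10.5% in control replicates 1, 2 and 3, and Prdx1 took 0.247%, 0.232% and 0.228% in the knockdown and 0.221%, 0.199% and 0.187% in control. The 6 libraries ranked in the same order by both shares, and what that has to do with the Prdx1 difference was not tested.

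Txnrd1 encodes cytosolic thioredoxin reductase, a selenoprotein that keeps thioredoxin reduced (ENSMUSG00000020250, chromosome 10, 82669785 to 82733546, plus strand). It had 169.5, 186.5 and 181.0 CPM in knockdown replicates 1, 2 and 3, against 183.0, 177.2 and 190.7 CPM in control replicates 1, 2 and 3. The groups overlapped, and the log2 fold change was -0.037 (SE 0.059, edgeR adjusted p = 0.72), a sign that turned in the GC and length correction (0.025).

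Srxn1 encodes sulfiredoxin, which repairs over-oxidised peroxiredoxins such as that of Prdx1 (ENSMUSG00000032802, chromosome 2, 151947436 to 151953296, plus strand). It had 31.0, 31.7 and 31.2 CPM in knockdown replicates 1, 2 and 3, against 35.7, 37.4 and 32.3 CPM in control replicates 1, 2 and 3. All 3 knockdown libraries were lower and close together, while control replicate 3 came near them. The difference did not pass (log2 fold change -0.17, SE 0.08, edgeR adjusted p = 0.15), so Prdx1 and Srxn1 had opposite signs in the same libraries.

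Me1 encodes cytosolic malic enzyme, a source of NADPH for both limbs (ENSMUSG00000032418, chromosome 9, 86463424 to 86578006, minus strand). It had 51.0, 51.6 and 49.9 CPM in knockdown replicates 1, 2 and 3, against 44.4, 46.7 and 46.4 CPM in control replicates 1, 2 and 3. The groups did not overlap, the spread within each was small, and the count was whole in 1 of 6 libraries. Even so the log2 fold change of 0.15 (SE 0.06) did not pass over all genes (edgeR adjusted p = 0.12), and it was 0.085 after the GC and length correction.

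Nqo1 encodes a quinone reductase and is the usual readout of NRF2 activity (ENSMUSG00000003849, chromosome 8, 108114857 to 108129838, minus strand). It had 16.3, 14.4 and 13.2 CPM in knockdown replicates 1, 2 and 3, against 14.8, 13.1 and 11.1 CPM in control replicates 1, 2 and 3. The ranges overlapped widely, since the highest control library exceeded 2 of the knockdown libraries. The log2 fold change was 0.18 (SE 0.12, edgeR adjusted p = 0.31), and 0.010 after the GC and length correction. Leaving out control replicate 3 gave 0.075 and leaving out control replicate 1 gave 0.28, neither passing.

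Hmox1 encodes the inducible haem oxygenase, which NRF2 drives and BACH1 represses (ENSMUSG00000005413, chromosome 8, 75820249 to 75827217, plus strand). It had 35.7, 33.2 and 36.8 CPM in knockdown replicates 1, 2 and 3, against 40.9, 38.9 and 37.5 CPM in control replicates 1, 2 and 3. The knockdown libraries were the lower 3, with knockdown replicate 3 just under control replicate 3. The difference did not pass (log2 fold change -0.15, SE 0.07, edgeR adjusted p = 0.18). With GC and length correction alone it did (log2 fold change -0.21, edgeR adjusted p = 0.045), and with the replicate block added it did not (0.073).

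**Figure D2:**
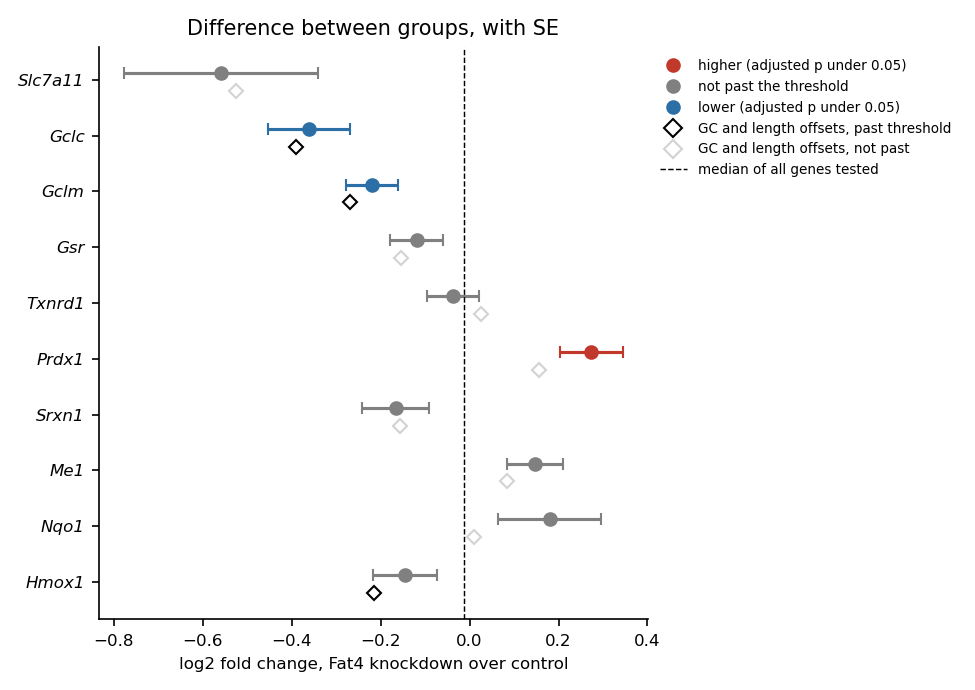
Log2 fold change of each of the 10 genes, knockdown over control, as filled points with SE bars, coloured by the call at an edgeR adjusted p under 0.05, with open diamonds for the fit that takes out GC and length trends and a dashed line at the median of all genes tested. Slc7a11, which was not called, stands farthest to the left, with Gclc and Gclm also to the left and Prdx1 to the right. The diamonds of Prdx1, Nqo1 and Me1 lie closer to 0, that of Txnrd1 lies across 0, and that of Hmox1 lies farther to the left.

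The directions of the 3 calls held in the settings below, and the calls themselves were lost in several fits with fewer libraries. Among 13 settings that used all 6 libraries, Gclc and Gclm were called in 13 each and Prdx1 in 12, the summed Gclm value above standing apart from these. Among the 6 fits without 1 library, Gclc was called in 3, Gclm in 2 and Prdx1 in 2. In those 6 fits the log2 fold change ran from -0.44 to -0.31 for Gclc, -0.23 to -0.20 for Gclm and 0.21 to 0.36 for Prdx1, and calls over all genes also fell, to 1216, 1165, 1029 and 1226 without knockdown replicate 1, knockdown replicate 2, control replicate 2 and control replicate 3. No member was called without knockdown replicate 2, control replicate 2 or control replicate 3, only Gclc without knockdown replicate 1, and 4 members without control replicate 1, where Slc7a11 joined the 3. The GC and length correction, which called 12.9% of all genes it tested, also called 3 members, but these were Gclc, Gclm and Hmox1. Control replicate 1 was the control library nearest to the knockdown mean for 5 of the 10 members, Slc7a11, Gclc, Gclm, Prdx1 and Nqo1.

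**Figure D3:**
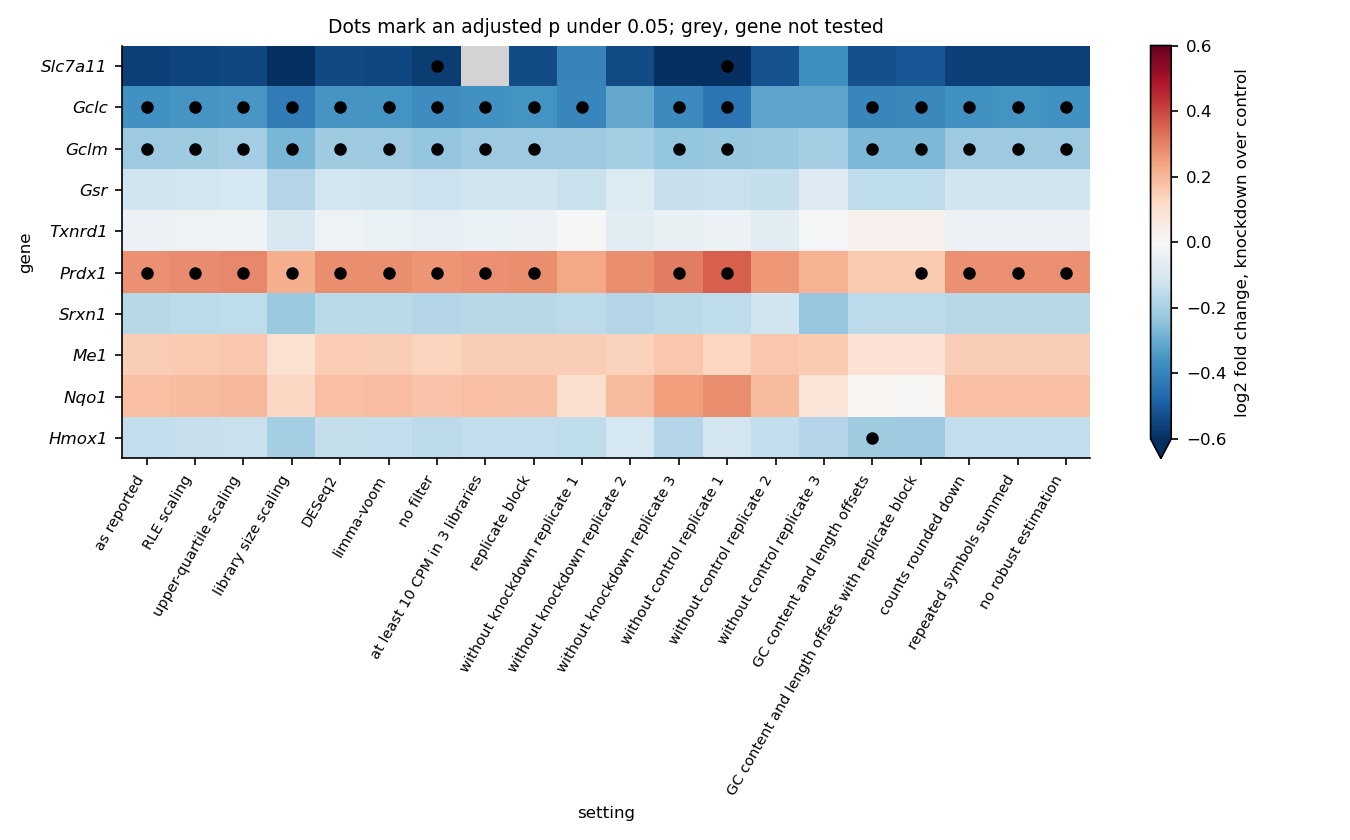
Log2 fold change of each of the 10 genes (rows), knockdown over control, under each setting (columns), blue lower and red higher in the knockdown, with a dot where the adjusted p is under 0.05 and grey where the gene was not tested. The dots lie in the rows of Gclc, Gclm and Prdx1, with 2 for Slc7a11 and 1 for Hmox1, and the columns without knockdown replicate 2, control replicate 2 or control replicate 3 hold none.

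Of 12 regulator genes of the pathway tested, Cul3 rose, Sqstm1 fell and 10 did not pass, a share of calls near the 17.4% over all genes, with a median log2 fold change of -0.097. Library-size scaling called 5 regulators, as did the fit without control replicate 1, and the other fits without 1 library called 0 or 1. Over all genes, library-size scaling called 2593 and the fit without control replicate 1 called 3077, against 2324 above. The other fits without 1 library called 1029 to 1789 of all genes. Nfe2l2, the gene of NRF2 itself, had 57.6 ± 1.87 CPM in knockdown and 65.1 ± 3.76 CPM in control (SD, n = 3 each), and its log2 fold change of -0.18 missed the threshold (SE 0.06, edgeR adjusted p = 0.073). Keap1, its inhibitor, had 77.6 ± 4.89 CPM in knockdown and 87.3 ± 3.19 CPM in control (SD, n = 3 each, log2 fold change -0.17, edgeR adjusted p = 0.081). After the GC and length correction Nfe2l2 passed (-0.21, edgeR adjusted p = 0.028) but not with the replicate block added (0.058), and Keap1 was at -0.044 (0.67).

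Bach1, the repressor of Hmox1, had 8.49 ± 0.65 CPM in knockdown and 8.67 ± 0.64 CPM in control libraries (SD, n = 3 each, log2 fold change -0.033, edgeR adjusted p = 0.89). Cul3, the scaffold of the ligase that KEAP1 recruits, rose to 76.4 ± 3.45 CPM in knockdown, against 64.6 ± 1.81 CPM in control (SD, n = 3 each, log2 fold change 0.24, edgeR adjusted p = 0.014). Sqstm1, an autophagy receptor that binds KEAP1 and is also an NRF2 target, fell to 79.8 ± 2.58 CPM in knockdown, against 92.7 ± 6.81 CPM in control (SD, n = 3 each, log2 fold change -0.22, edgeR adjusted p = 0.035). The GC and length correction ended both calls, with edgeR adjusted p-values of 0.069 for Cul3 and 0.058 for Sqstm1. The Cul3 call was also lost without knockdown replicate 2 (edgeR adjusted p = 0.079) or control replicate 2 (0.082), and the Sqstm1 call held only without control replicate 1, the other 5 fits giving 0.069 to 0.17.

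Other genes of glutathione supply and use moved in both directions. Of 28 genes listed, 25 were tested, 6 rose, 6 fell and 13 did not pass, beside 8.94% higher and 8.44% lower over all genes, with a median log2 fold change of 0.016. DESeq2 called 4 of them, and the fits without knockdown replicate 1, knockdown replicate 2, control replicate 2 or control replicate 3 called 6, 5, 6 and 6. Over all genes these called 1439, 1216, 1165, 1029 and 1226, in the same order. Mgst1, a microsomal glutathione transferase, fell to 79.3 ± 1.74 CPM in knockdown, against 108.9 ± 3.47 CPM in control (SD, n = 3 each, log2 fold change -0.46, edgeR adjusted p = 0.00022). Gpx1, the cytosolic glutathione peroxidase, rose to 197 ± 9.93 CPM in knockdown, against 160.2 ± 8.23 CPM in control (SD, n = 3 each, log2 fold change 0.30, edgeR adjusted p = 0.0042). The transferase genes Mgst2 (-0.74) and Gsta3 (-1.61) also fell, Gsta3 being scarce at 0.49 ± 0.09 CPM in knockdown and 1.54 ± 0.10 CPM in control (SD, n = 3 each). Each of these 4 calls held in all 6 fits without a library. Gsta3 has close relatives in its gene family and the counting rule is not stated, but its counts were whole in all 6 libraries.

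Of 3 genes that share regulators or function with Slc7a11, 1 fell and 2 did not pass, beside 17.4% called and 8.44% lower over all genes. Slc3a2 and Chac1 are also counted in the glutathione list, and Sesn2 in the thioredoxin list. Slc3a2, the heavy chain that carries Slc7a11 to the membrane, had 210.3 ± 14.0 CPM in knockdown and 239 ± 13.1 CPM in control, just short of the threshold (SD, n = 3 each, log2 fold change -0.19, edgeR adjusted p = 0.053). Chac1, which degrades glutathione, fell to 15.7 ± 0.90 CPM in knockdown, against 19.5 ± 1.35 CPM in control (SD, n = 3 each, log2 fold change -0.30, edgeR adjusted p = 0.031). That call was lost without knockdown replicate 1 (edgeR adjusted p = 0.11), knockdown replicate 2 (0.10), control replicate 2 (0.16) or control replicate 3 (0.053), and with all 6 libraries under DESeq2 (adjusted p = 0.17) or a replicate block (0.053). Sesn2, a stress-induced sestrin, had 2.86 ± 0.38 CPM in knockdown and 4.0 ± 0.19 CPM in control and did not pass (SD, n = 3 each, log2 fold change -0.48, edgeR adjusted p = 0.069).

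Slc7a11, Slc3a2, Chac1 and Sesn2 are also targets of ATF4, the factor of the amino acid response. Of 16 further ATF4 genes, Atf4 itself among them, 14 were tested, 1 rose, 3 fell and 10 did not pass. This stands beside 17.4% called over all genes, and the median log2 fold change was -0.068. Atf4 had 606 ± 27.7 CPM in knockdown and 544 ± 34.9 CPM in control and did not pass (SD, n = 3 each, log2 fold change 0.16, edgeR adjusted p = 0.098). Atf5 (-0.35), Trib3 (-0.53) and the amino acid transporter gene Slc7a5 (-0.20) fell and Ddit3 (0.40) rose. The correction for GC content and length ended the calls of Slc7a5 and Ddit3, leaving 2 of the 4. Without 1 library, Slc7a5 was lost in all fits but those without knockdown replicate 1 or control replicate 1, and Ddit3 in all but those without control replicate 1 or 3. The fits without knockdown replicate 2, knockdown replicate 3 or control replicate 2 called 2 of these ATF4 genes each. Over all genes these fits called 1165, 1789 and 1029.

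Among 17 other genes of the thioredoxin and peroxiredoxin system, 2 rose, 1 fell and 14 did not pass, a share of calls near the 17.4% over all genes, with a median log2 fold change of 0.0076. Library-size scaling and the fit without control replicate 1 each called 5, beside 2593 and 3077 of all genes. Txnip, which binds and inhibits thioredoxin, rose to 48.3 ± 3.26 CPM in knockdown, against 31.8 ± 1.87 CPM in control (SD, n = 3 each, log2 fold change 0.61, edgeR adjusted p = 0.000135). Txn1, thioredoxin itself, rose to 1488 ± 102 CPM in knockdown, against 1233 ± 38.3 CPM in control (SD, n = 3 each, log2 fold change 0.27, edgeR adjusted p = 0.0074). Both calls held in all 6 fits without a library. The GC and length correction took Txn1 to 0.060 (edgeR adjusted p = 0.57) and left Txnip at 0.57.

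Of the other 5 peroxiredoxin genes, 1 fell and 4 did not pass, a share of calls near the 17.4% over all genes. Prdx6, a peroxiredoxin that uses glutathione, fell to 192 ± 5.77 CPM in knockdown, against 223 ± 4.54 CPM in control (SD, n = 3 each, log2 fold change -0.21, edgeR adjusted p = 0.014). It was not called without knockdown replicate 2 (edgeR adjusted p = 0.067), control replicate 2 (0.091) or control replicate 3 (0.051). Prdx2 (log2 fold change 0.13), Prdx3 (-0.16), Prdx4 (0.0076) and Prdx5 (0.013) did not pass, with edgeR adjusted p-values of 0.10 to 0.96, though Prdx3 did after the GC and length correction (-0.36, 0.0012). Differences between Prdx1 and these genes were not tested.

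Of 16 detoxifying and quinone enzyme genes, 4 fell, 0 rose and 12 did not pass, beside 8.44% lower and 8.94% higher over all genes, with a median log2 fold change of -0.079. DESeq2 and the fit without control replicate 2 each called 2, beside 1439 and 1029 of all genes. Aldh3a1, an aldehyde dehydrogenase, fell to 38.9 ± 1.74 CPM in knockdown, against 55.5 ± 2.14 CPM in control (SD, n = 3 each, log2 fold change -0.51, edgeR adjusted p = 0.00020). The epoxide hydrolase gene Ephx1 (-0.39), the carbonyl reductase gene Cbr3 (-0.39) and the reductase gene Cyb5r1 (-0.31) fell too. The 4 kept their calls after the GC and length correction, Cyb5r1 not with the replicate block added (edgeR adjusted p = 0.058), and Aldh3a1 and Ephx1 did so in all 6 fits without a library. Cbr3 was not called without knockdown replicate 3 (edgeR adjusted p = 0.072) or control replicate 2 (0.058), nor Cyb5r1 without knockdown replicate 1 (0.064) or control replicate 2 (0.087). Nqo1, the quinone reductase gene of the 10, had a log2 fold change of the other sign and did not pass.

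The remaining lists held 1 call each, beside 17.4% called over all genes. Of 14 NADPH supply genes, Tkt, a transketolase gene of the pentose phosphate pathway, fell to 52.0 ± 2.87 CPM in knockdown, against 70.3 ± 3.50 CPM in control (SD, n = 3 each, log2 fold change -0.44, edgeR adjusted p = 0.00065), and Taldo1, the most abundant, was at 255 ± 23.6 CPM in knockdown and 245 ± 8.46 CPM in control. The list's median was -0.15, beside -0.012 over all genes tested. By direction alone 11 of its 14 genes were lower, most of them not called, beside 6986 of 13372 over all genes. The list had 4 calls under library-size scaling and without control replicate 1, where 2593 and 3077 of all genes were called. Of 13 tested haem and iron genes, Tfrc, the transferrin receptor gene, rose (log2 fold change 0.30, edgeR adjusted p = 0.0050), and Fth1, the ferritin heavy chain gene, was at 2418 ± 86.2 CPM in knockdown and 2334 ± 171 CPM in control (SD, n = 3 each). Of 7 tested superoxide and peroxide genes, Oxr1 rose (0.43, edgeR adjusted p = 0.014), but not without knockdown replicate 2 (0.083), control replicate 2 (0.061) or control replicate 3 (0.058), and Sod1, the most abundant, was at 320 ± 15.1 CPM in knockdown and 336 ± 10.5 CPM in control (SD, n = 3 each). The fit without control replicate 1, which called 3077 of all genes, called 2 in the haem and iron list and 2 in the superoxide and peroxide list. The median log2 fold change was 0.0095 for haem and iron and 0.13 for superoxide and peroxide genes.

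**Figure D4:**
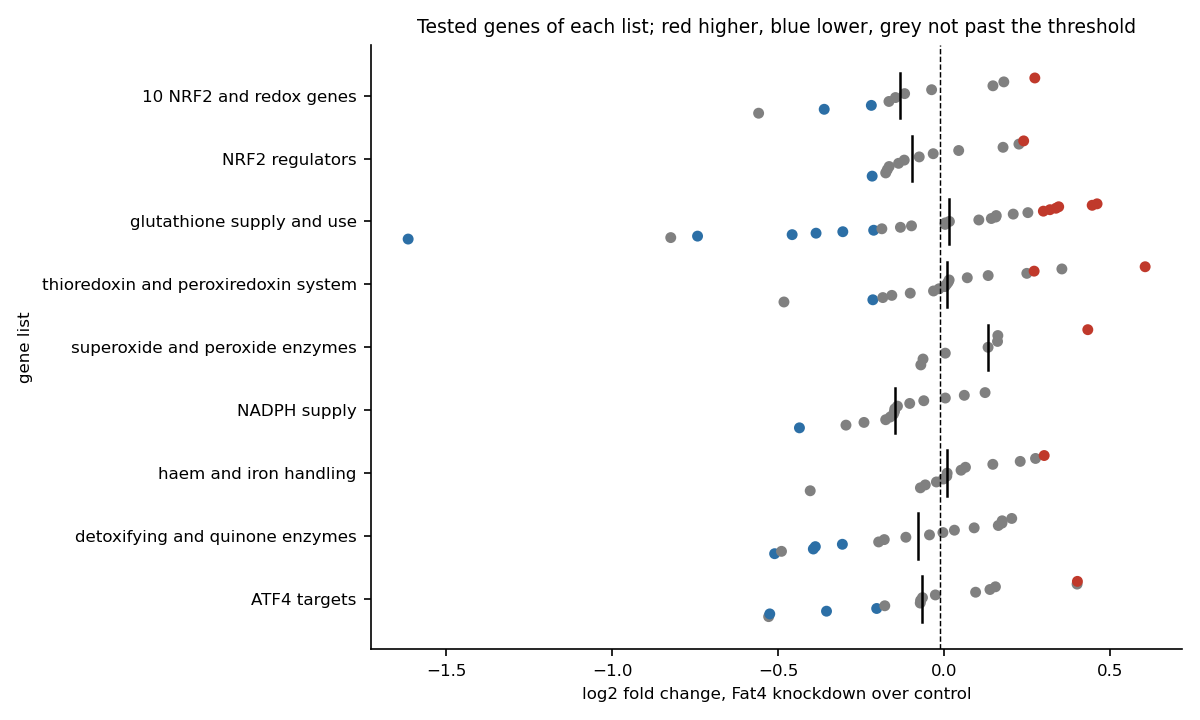
Log2 fold change, knockdown over control, of every tested gene in the 10-gene set and in each of 8 related lists, red where higher, blue where lower and grey where the adjusted p was not under 0.05, with a bar at each list's median and a dashed line at the median of all genes tested. The detoxifying enzymes hold 4 blue points and no red one, and glutathione supply and use holds 6 of each.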

How the data were processed

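The authors deposited 1 table with estimated counts per gene and CPM values, which equal each count divided by the library total (largest difference 3.64e-12). The submitters' processing notes name GRCm39 and the tools STAR 2.7.11, fastp 0.24.0, SAMtools 1.22.1, FastQC 0.12.1 and MultiQC 1.32. The labels state no read counter, strand setting or annotation release. Of the nonzero deposited counts, 29.0% are not whole (tolerance 1e-06), as happens where reads are divided among features, so genes with overlapping or near-identical copies are uncertain. Gene lengths are those the authors deposited in the table.

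Counts were rounded, 92 spike-in rows were left out, and genes passing filterByExpr were scaled by TMM and tested with edgeR 4.0.16 in R 4.3.3 (estimateDisp, robust glmQLFit, glmQLFTest; knockdown over control, no block, two-sided, Benjamini-Hochberg over 13372 genes, threshold 0.05). Robust estimation was chosen after seeing the data, because it returned the number of calls of an earlier analysis of these data; without it 2242 genes and the same 3 members were called. SE is the size of the log2 fold change over the root of F, and CPM values here use TMM-scaled library sizes. The biological coefficient of variation was 6.31%. A 3-against-3 exact permutation test cannot go below p = 0.1, so none is given. Settings tried were library-size, upper-quartile and RLE scaling, limma-voom (limma 3.58.1), DESeq2 1.42.0, leaving out each library, a replicate block, no filter, a floor of 10 CPM in 3 libraries, rounding down, summed repeated symbols, the sum of Gclm and Gm6061 (chosen after seeing the data), and offsets for GC content (GENCODE M21 transcripts, GRCm38, by gene identifier, 95.6% of genes) and exon length fitted with mgcv 1.9.3. The workflow was tested on simulated data.

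The 10 members and the gene lists were chosen with earlier results of these data known. The text names all members, Fat4, Nfe2l2, Keap1, Bach1, Sesn2, Slc3a2, Chac1, up to 4 called genes of each pathway list with the smallest adjusted p (with fewer than 2 calls, also the most abundant gene), and the called and most abundant markers. Gm6061, Gm17494, Atf4 and Prdx2 to Prdx5 were named after their values were seen. A check for 1 library deposited under 2 names found no pair within a group that agreed within sampling noise (chi-square per degree of freedom 2.43 to 9.10).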

Additional observations from a re-analysis of the deposited data

How the results depend on the processing

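Without 1 library, the number of calls ran from 1029 to 3077 over all genes, 0 to 4 for the 10 members, 0 to 5 for the regulators, 5 to 14 for glutathione supply and use, 2 to 5 for the thioredoxin system, 0 to 2 for superoxide and peroxide enzymes, 1 to 4 for NADPH supply, 1 to 2 for haem and iron, 2 to 4 for detoxifying enzymes and 2 to 5 for ATF4 targets. With all 6 libraries, calls were also lost under DESeq2 for Cbr3 (adjusted p = 0.088), Cyb5r1 (0.061), Ddit3 (0.14), Sqstm1 (0.077), Mgst2 (0.053), Flt1 (0.070), Thy1 (0.10) and Wt1 (0.094), and under library-size scaling for Cul3 (edgeR adjusted p = 0.058). DESeq2 called 1439 of all genes, 4 of glutathione supply and use and 2 of the detoxifying enzymes. Library-size scaling called 5 regulators, 5 thioredoxin and 4 NADPH genes, and of its 2593 calls over all genes 32.9% were higher, against 51.4% under TMM. GC and length correction called 2 ATF4 targets, and with the replicate block added it called 1327 of all genes, 0 regulators and 2 ATF4 targets. In the other settings with all 6 libraries these counts stayed within 1.5 times, and the 10 members kept 3 or 4 calls.

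Signs turned with GC and length correction for Txnrd1 (0.025, with the block 0.025) and Upk1b (-0.11, with the block -0.11), with library-size scaling for Upk1b (-0.056) and Fth1 (-0.0036), without a filter for Upk1b (-0.010), and for Gclm summed with Gm6061 (0.046). Without 1 library, log2 fold changes crossed 0 for Txnrd1 (-0.067 to 0.00086), Bach1 (-0.097 to 0.026), Taldo1 (-0.0070 to 0.13), Upk1b (-0.015 to 0.021) and Tnnt2 (-0.15 to 0.48). Among these only the deposited Gclm row was called, and the cause was not tested.

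Replicate numbers gave no pairing: deviations of same-numbered libraries from their group means correlated at -0.21, -0.05 and -0.05. The fit with a replicate block called 2001 of all genes and the same 3 members, with log2 fold changes of -0.36 for Gclc, -0.22 for Gclm and 0.28 for Prdx1. Depth limits most the genes of few counts, such as Slc7a11, Gsta3 and Fat4.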
